A study of Mus musculus with 16 samples.

Results

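To describe what a single 12 Gy dose did to the immune cells of a tumor within 24 h, CD45+ cells (leukocytes, gated on the pan-leukocyte surface protein CD45) of irradiated MC38 tumors were compared with those of untreated MC38 tumors. MC38 is a mouse colorectal carcinoma line, here grown from 200000 cells under the flank skin of C57BL/6J mice aged 6 to 8 wk and treated at about 5 mm average diameter. The irradiated group (RT) received 12 Gy of CT-guided radiation and was harvested 24 h later, the untreated group (NT) received none, and live CD45+ cells of both were sorted and sequenced as droplet single-cell libraries. The labels give 4 libraries per group and the methods 3 animals per group, without saying which animal each library came from. The p-values therefore measure the spread between libraries, which may be technical in part, and each tumor is a graft of the same single line. The members were all CD45+ barcodes of the 8 MC38 libraries, with a barcode string found in several MC38 libraries kept only where its UMIs (unique molecular identifiers, counted transcripts) were highest. This left 2632 distinct barcodes, 1327 from untreated and 1305 from irradiated tumors, of 28678 barcode entries in the whole series. The series also holds 8 libraries of Panc02-SIY, a pancreatic adenocarcinoma line that carries the model antigen SIY. Of those, 4 were from untreated tumors and 4 from tumors given 12 Gy, harvested 24 h later from mice of the same age range. Panc02-SIY tumors were grown from 5000000 cells and treated at about 5 mm too, so the 2 tumors also differ in cells implanted.

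Ionizing radiation breaks DNA. The kinase ATM senses the breaks and stabilizes the transcription factor p53, which switches on a set of target genes: Cdkn1a encodes p21, an inhibitor of cyclin-dependent kinases that stops cells before DNA replication, Mdm2 encodes the ubiquitin ligase that returns p53 to its low level, and Bax and Bbc3 encode proteins that open mitochondria to start apoptosis. Arrest through p21 also keeps E2F factors from switching on the genes of DNA replication. Broken or misplaced DNA can in addition be sensed in the cytosol through cGAS and STING, and interferons then raise a broad set of antiviral genes through transcription factors of the STAT and IRF families. Tumors hold macrophages, some of which divide in place, monocytes that keep arriving from the blood, dendritic cells, T cells and NK cells.

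The MC38 libraries shared most of their barcode strings. Their 9843 barcode entries were 2632 distinct strings, 1239 of them in several libraries and 769 in all 8, and the richest library held at least 4.65 times (median 17.5 times) the UMIs of the next. The library of a shared string thus rests on UMI counts alone, and whether the 8 libraries hold wholly separate cells was not tested. After each string was kept only in its richest library, untreated libraries held 218 to 502 barcodes and 3422372 to 8500443 UMIs, and irradiated libraries 147 to 609 barcodes and 1385711 to 8500889 UMIs. RT 1 stood apart as the shallowest, with 42.8% of its UMIs kept against 64.5% or more in the other libraries. Mitochondrial transcripts took 3.87% to 4.73% of UMIs in untreated and 3.32% to 4.61% in irradiated libraries. Ptprc, the gene of CD45, had 1035 to 4431 UMIs per library, and the keratin genes Krt8 and Krt19, of epithelial and carcinoma cells, were at 0 in all 8, with Krt18 at 0 to 2 UMIs. The hemoglobin genes Hba-a1 and Hbb-bs had 20 and 26 UMIs in RT 3, 10 and 0 in RT 4, and at most 1 in any other library. Epcam, an epithelial marker that some dendritic cells also express, had 6 to 84 UMIs, and the collagen gene Col1a1 had 5 to 51. Over the 15 genes of cells outside the gate, the summed level was 34.2 to 63.4 CPM (UMI counts scaled to a common library size) in untreated and 43.1 to 70.7 CPM in irradiated libraries.

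Irradiated MC38 tumors differed from untreated ones in many genes. Of 10599 genes tested, 898 (8.47%) were called higher and 828 (7.81%) lower after radiation, where edgeR's quasi-likelihood test on UMIs summed per library gave an adjusted p under 0.1 and the change exceeded 1.3-fold. The 4 irradiated libraries did not overlap the 4 untreated ones for 2271 genes (21.4%), 1315 of them called. A change above 2-fold was called for 134 genes upward and 188 downward, and the median log2 fold change over all genes tested was 0.01. The counts differed with the choice of barcodes, and the cause was not tested. With every barcode entry kept in every library, 490 genes were higher and 543 lower, and with only the strings found in 1 library, 27 were higher and 9 lower of 4883 tested. Scaled by library size alone, 586 genes were higher and 1185 lower. As sums over barcodes, these values cannot tell fewer cells of a type from less RNA per cell.

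The p53 targets of arrest and feedback rose together: 13 of 16 listed genes were called higher and 1 lower, with a median log2 fold change of 1.35, against 8.47% of all genes called higher and a median of 0.01. Cdkn1a (chr17:29090976-29100727, plus strand) stood at 393, 377, 412 and 318 CPM in the untreated and 1316, 1549, 1391 and 1328 CPM in the irradiated libraries. Every irradiated library lay more than 3-fold above every untreated one, and the mean rose from 375 ± 40.5 to 1396 ± 107 CPM (SD, n = 4 each; log2 fold change 1.90 ± 0.10 (SE), edgeR adjusted p = 6.88e-08). Ccng1 (chr11:40748552-40755311, minus strand), which encodes cyclin G1, a partner of the Mdm2 feedback, stood at 34.8, 28.2, 37.9 and 30.4 CPM in the untreated and 144, 182, 180.3 and 152 CPM in the irradiated libraries. It rose from 32.9 ± 4.34 to 164 ± 19.7 CPM (log2 fold change 2.32 ± 0.11 (SE), edgeR adjusted p = 6.88e-08). Phlda3 (chr1:135766119-135769136, plus strand), which encodes a repressor of the kinase Akt, was low without radiation, at 5.48, 3.95, 6.37 and 3.37 CPM in the untreated and 54.3, 101, 82.3 and 68.1 CPM in the irradiated libraries. Its groups lay far apart (log2 fold change 4.02 ± 0.24 (SE), edgeR adjusted p = 5.57e-06).

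Mdm2 (chr10:117688875-117710758, minus strand) stood at 39.9, 55.3, 49.7 and 44.1 CPM in the untreated and 176, 150.1, 127 and 121 CPM in the irradiated libraries, with no overlap (log2 fold change 1.59, adjusted p = 1.79e-05). Trp53inp1 (chr4:11156431-11174379, plus strand), which encodes a nuclear partner of p53, rose from 7.25 ± 2.32 to 48.5 ± 4.92 CPM, a log2 fold change of 2.72 (adjusted p = 1.28e-06). Zmat3 (chr3:32334792-32366014, minus strand), whose zinc finger protein binds RNA and acts in growth arrest, rose from 5.68 ± 0.619 to 31.2 ± 5.37 CPM, a log2 fold change of 2.42 (adjusted p = 1.37e-06). In all 3 genes every irradiated library lay above every untreated one. Sesn1, a sestrin that restrains growth signaling, did not pass the test, at 16.2 ± 2.01 CPM in untreated and 12.2 ± 3.65 CPM in irradiated libraries. Gtse1, a G2 and S phase protein that binds p53, did not pass either (log2 fold change 0.80, adjusted p = 0.153). The member called lower was Cdc25c, a phosphatase that opens mitosis and that p53 represses, at 4.33 ± 1.65 CPM in untreated and 1.88 ± 0.823 CPM in irradiated libraries, and its groups overlapped. Trp53 itself, the gene of p53, stood at 80.0, 78.5, 74.2 and 71.2 CPM in the untreated and 45.7, 62.7, 63.3 and 53.4 CPM in the irradiated libraries, and fell by 0.41 on the log2 scale (adjusted p = 0.0138). Its fold fell short of 1.3 when RT 1 or RT 4 was left out (log2 fold change -0.35 and -0.38).

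**Figure D1:**
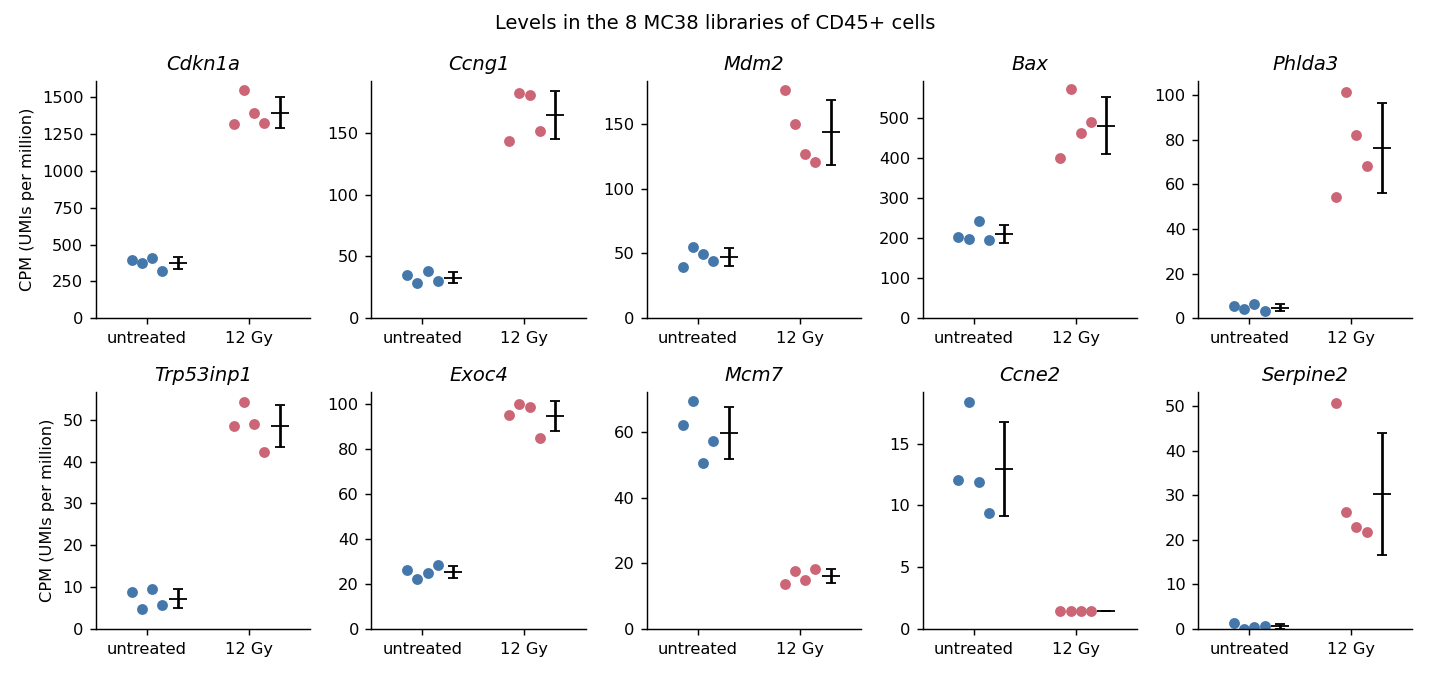
Level in CPM (UMI counts scaled to a common library size, linear axis from 0) of 10 genes in the 4 untreated and 4 irradiated MC38 libraries, 1 point per library, with the mean and SD beside each group. For all 10 genes the groups do not overlap, with Cdkn1a between 318 and 412 CPM untreated and between 1316 and 1549 CPM irradiated, and with RT 1 as the highest library for Serpine2.

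Among p53 targets that act in cell death, 8 of 11 tested genes were higher and 0 lower (median log2 fold change 0.87), and 2 of the 13 listed genes were too low to test. Bax (chr7:45461697-45466898, minus strand), which forms pores in the mitochondrial membrane, stood at 202, 198, 243 and 195 CPM in the untreated and 399, 572, 461 and 489 CPM in the irradiated libraries. It rose from 209 ± 22.7 to 480.4 ± 71.8 CPM (log2 fold change 1.20 ± 0.11 (SE), edgeR adjusted p = 2.52e-05). Bbc3, the gene of the BH3-only protein PUMA, rose from 14.4 ± 3.06 to 46.2 ± 7.35 CPM, and Pmaip1, the gene of the related NOXA, rose from 64 ± 12.1 to 107 ± 11.7 CPM (log2 fold change 1.68 and 0.74, adjusted p = 2.38e-05 and 0.00181). Fas, the gene of a death receptor, rose from 13.2 ± 2.97 to 26.4 ± 3.72 CPM, and Aen, an apoptosis-enhancing nuclease gene, rose from 19 ± 2.4 to 38.3 ± 3.26 CPM (log2 fold change 0.96 and 1.03, adjusted p = 0.00199 and 0.000105). Ei24, the gene of a membrane protein induced by p53, also rose (log2 fold change 0.87, adjusted p = 0.000435). Bak1, the partner of Bax in the mitochondrial membrane, stood at 90.4 ± 9.16 CPM in untreated and 93.8 ± 12 CPM in irradiated libraries (log2 fold change 0.04, adjusted p = 0.838). Whether Bax and Bak1 differ in their change was not tested.

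Of the p53 targets of repair and metabolism, 5 of 12 tested genes were higher and 0 lower, against 8.47% and 7.81% of all genes. The median log2 fold change was 0.33, and 3 listed genes were too low to test. Polk, the gene of a DNA polymerase that copies past lesions, rose from 10.5 ± 1.06 to 21.4 ± 2.89 CPM (log2 fold change 1.00, adjusted p = 0.000678). Dcxr, a sugar reductase gene, rose from 30.5 ± 4.9 to 87.6 ± 19.7 CPM, and Ephx1, an epoxide hydrolase gene, rose from 2.08 ± 0.321 to 9.48 ± 3.07 CPM (log2 fold change 1.51 and 2.21, adjusted p = 0.000144 and 0.000209). Gdf15, the gene of a secreted stress cytokine, stood at 0.219, 0.282, 2.45 and 2.21 CPM in the untreated and 2.86, 16.6, 23.9 and 19.2 CPM in the irradiated libraries, which is 1, 1, 15 and 19 UMIs against 4, 45, 113 and 156 UMIs. RT 1 was the lowest irradiated library there and lay just above the untreated ones (log2 fold change 3.48, adjusted p = 0.00962). Triap1, a small p53-regulated inhibitor of apoptosis, stood at 33.5 ± 1.57 CPM in untreated and 27.6 ± 8.08 CPM in irradiated libraries (log2 fold change -0.19, adjusted p = 0.433). Rpl22l1, a ribosomal protein paralog, stood at 413 ± 26.5 CPM in untreated and 415 ± 38.5 CPM in irradiated libraries (log2 fold change 0.01, adjusted p = 0.964). Neither of these passed the test.

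Several genes outside the lists also rose. Exoc4 (chr6:33249085-33973979, plus strand), which encodes a subunit of the exocyst that tethers secretory vesicles, stood at 26.3, 22, 24.8 and 28.4 CPM in the untreated and 95, 100.0, 98.6 and 84.9 CPM in the irradiated libraries. The groups did not overlap, and it rose from 25.4 ± 2.7 to 94.6 ± 6.8 CPM (log2 fold change 1.88 ± 0.10 (SE), edgeR adjusted p = 7.03e-08). Serpine2 (chr1:79794197-79861180, minus strand), which encodes protease nexin 1, a secreted inhibitor of thrombin and other serine proteases, had the largest rise among the called genes that did not overlap and reached 20 CPM. It was at 1.32, 0, 0.327 and 0.697 CPM in the untreated and 50.7, 26.2, 22.9 and 21.8 CPM in the irradiated libraries, or 6, 0, 2 and 6 UMIs against 71, 71, 108 and 177 UMIs (log2 fold change 5.47 ± 0.47 (SE), edgeR adjusted p = 0.000116). Untreated counts this low leave the size of the ratio imprecise. Ermard, an endoplasmic reticulum membrane protein gene (chr17:15041208-15090044, plus strand), rose from 9.26 ± 0.888 to 31 ± 11.6 CPM (log2 fold change 1.72, adjusted p = 0.000557). Gm42047 (chr8:121833247-121841178, plus strand) is annotated as a long intergenic noncoding RNA and rose from 16 ± 5.33 to 102 ± 45.1 CPM (log2 fold change 2.69, adjusted p = 0.00662). It overlaps Gm20388 on the same strand, so its counts are uncertain. Gm26870 (chr9:3000282-3038313, minus strand), also a noncoding RNA gene, rose from 8.46 ± 3.36 to 30.4 ± 12.8 CPM (log2 fold change 1.92, adjusted p = 0.0141). It lies opposite 9 predicted genes, and whether they affect its counts was not tested. Exoc4, Bax and Stmn1 overlap Gm43168, Gm45808 and Gm23634 on the same strand, and Mcm7 overlaps microRNA genes there. The part of these overlaps in their counts was not tested.

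Genes of DNA replication fell together. Of 24 S phase genes, 23 were called lower and 0 higher, with all 24 below 0 and a median log2 fold change of -1.47, against 7.81% of all genes called lower. The summed level of the list was 881 to 1162 CPM in untreated and 378 to 479 CPM in irradiated libraries, so the groups did not overlap. Mcm7 (chr5:138164583-138172422, minus strand), a subunit of the MCM helicase that unwinds DNA, stood at 62, 69.5, 50.6 and 57.1 CPM in the untreated and 13.6, 17.7, 15 and 18.3 CPM in the irradiated libraries. It fell from 59.8 ± 7.95 to 16.2 ± 2.24 CPM (log2 fold change -1.84 ± 0.13 (SE), edgeR adjusted p = 1.43e-06). Ccne2 (chr4:11191351-11204779, plus strand), which encodes cyclin E2 of the G1 to S step, stood at 12.1, 18.4, 11.9 and 9.4 CPM in the untreated and 1.43, 1.48, 1.48 and 1.48 CPM in the irradiated libraries. This was the largest fall among the S phase genes (log2 fold change -3.08 ± 0.28, edgeR adjusted p = 2.52e-05). The irradiated levels rest on few UMIs (0, 4, 1 and 6 in the macrophage-like barcodes described below), so their near-equality has no weight. Tyms (chr5:30058202-30073617, minus strand), thymidylate synthase, fell from 36.6 ± 7.25 to 8.92 ± 2.5 CPM, and Uhrf1 (chr17:56303321-56323486, plus strand), which maintains DNA methylation after replication, fell from 24 ± 6.49 to 6.42 ± 2.93 CPM (log2 fold change -2.08 and -1.92, adjusted p = 2.68e-05 and 0.000899). Fen1, the flap nuclease, varied little within each group, at 40.5, 40.1, 38.4 and 41.2 CPM in the untreated and 19.3, 20.7, 20.1 and 19.2 CPM in the irradiated libraries (log2 fold change -1.02, adjusted p = 2.8e-05). Slbp, which encodes the histone stem-loop binding protein, was the member not called, at 90.0 ± 8.9 CPM in untreated and 77.4 ± 7.04 CPM in irradiated libraries (log2 fold change -0.23, adjusted p = 0.116).

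The replication genes Mcm6 and Mcm5 are shown by the 250 bases before their start, because E2F factors bind the letters TTTNGCGC in the promoters of such genes, and these 2 promoters hold them. Mcm6, at 50.2, 78.5, 64.8 and 62.7 CPM in the untreated and 17.9, 15.9, 16.9 and 22.6 CPM in the irradiated libraries, fell by 1.76 on the log2 scale, and Mcm5, at 39, 54.5, 41.2 and 42.3 CPM in the untreated and 16.4, 9.96, 9.95 and 15.9 CPM in the irradiated libraries, fell by 1.76. The sequences are from RefSeq (GRCm38.p6), chr1:128359706-128359955, minus strand for Mcm6 and chr8:75109259-75109508, plus strand for Mcm5, written 5′ to 3′ on the gene's strand, with matches on either strand in capitals.
Mcm6: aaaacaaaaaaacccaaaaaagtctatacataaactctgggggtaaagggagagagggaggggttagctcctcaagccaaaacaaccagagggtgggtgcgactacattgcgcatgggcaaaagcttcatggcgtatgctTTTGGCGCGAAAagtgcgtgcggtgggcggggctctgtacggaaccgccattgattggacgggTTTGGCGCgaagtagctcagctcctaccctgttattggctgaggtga
Mcm5: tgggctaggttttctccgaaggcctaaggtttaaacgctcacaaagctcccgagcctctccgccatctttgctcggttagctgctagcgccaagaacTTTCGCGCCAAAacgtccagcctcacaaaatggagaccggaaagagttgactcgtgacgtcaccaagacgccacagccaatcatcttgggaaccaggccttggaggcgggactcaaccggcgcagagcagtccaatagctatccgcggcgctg
In Mcm6 the matches begin 110, 106 and 47 bases before the gene start, and the first pair overlaps on opposite strands. In Mcm5 they begin 153 and 149 bases before it and overlap in the same way. Over a window of 250 bases before to 50 after the start, searched on both strands, TTTNGCGC was found in 7 of 20 S phase genes with a promoter in the table (35%). It was found in 45 of 668 genes called lower (6.74%), in 3.01% of genes tested and in 1.57% of all 27025 genes with a promoter. A match is a description of the letters and not a measured binding site.

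Genes of G2 and mitosis were also below their untreated level, with all 28 below 0 and a median log2 fold change of -0.92, and 10 of 28 were called lower, against 7.81% of all genes tested. This count was 16 without NT 2, 5 without RT 3, 5 without RT 4 and 2 with all 16 libraries in the fit. Birc5 (chr11:117849251-117855743, plus strand), the gene of survivin in the chromosomal passenger complex, stood at 103, 43.5, 60.3 and 67.6 CPM in the untreated and 36.4, 25.1, 10.6 and 17.7 CPM in the irradiated libraries. The untreated libraries were spread over more than 2-fold, and the fall had an adjusted p of 0.0314 (log2 fold change -1.78). Bub1, a spindle checkpoint kinase gene, fell from 14 ± 2.45 to 4.18 ± 1.88 CPM, and Aurkb, the gene of Aurora kinase B, fell from 19.3 ± 5.44 to 7.98 ± 2.45 CPM (log2 fold change -1.64 and -1.35, adjusted p = 0.00165 and 0.00251). Cdca3 (chr6:124829547-124833701, plus strand), which triggers mitotic entry, and Cdk1, the mitotic kinase gene, had log2 fold changes of -1.89 (adjusted p = 0.0344) and -1.27 (adjusted p = 0.0215). Top2a, the topoisomerase of chromosome condensation, did not pass the test, at 164, 94.3, 82.3 and 109 CPM in the untreated and 134, 90.0, 54.6 and 82.7 CPM in the irradiated libraries, and its groups overlapped. Other proliferation genes fell strongly: Stmn1 (chr4:134468320-134473843, plus strand), which encodes the microtubule regulator stathmin, fell from 178 ± 45.9 to 43.9 ± 20.8 CPM, and the histone gene Hist1h2ae (chr13:23570517-23571220, minus strand) fell from 65.7 ± 26.7 to 11.8 ± 5.66 CPM (log2 fold change -2.11 and -2.53, adjusted p = 0.0201 and 0.0084). Reads of near-identical histone genes can be split between them, so the level of Hist1h2ae is uncertain. Lig1 (chr7:13277283-13311433, plus strand), the DNA ligase of replication, fell from 51 ± 5.1 to 15.4 ± 1.63 CPM, and Tk1 (chr11:117815526-117826092, minus strand), thymidine kinase, fell from 39.4 ± 6.57 to 12 ± 4.3 CPM (log2 fold change -1.70 and -1.84, adjusted p = 1.37e-06 and 0.000331). Asf1b (chr8:83955507-83970197, plus strand), a histone chaperone, had a log2 fold change of -1.89 (adjusted p = 0.0017).

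No gene of the DNA damage response and repair list was called higher. Of 23 tested, 10 were called lower (median log2 fold change -0.39), against 7.81% of all genes. Those called include repair genes that dividing cells use. Ung, uracil-DNA glycosylase, stood at 11, 16.1, 9.96 and 11.4 CPM in the untreated and 1.43, 1.48, 1.27 and 2.71 CPM in the irradiated libraries. It fell by 2.60 on the log2 scale (adjusted p = 6.31e-05). H2afx, the gene of the histone variant marked at breaks, fell from 45.7 ± 11.4 to 22.6 ± 4.26 CPM (log2 fold change -1.05, adjusted p = 0.00309). Brca2 and Brca1, both of homologous recombination, had log2 fold changes of -1.18 (adjusted p = 0.00496) and -1.43 (adjusted p = 0.0191). Parp1, a sensor of DNA breaks, had an adjusted p of 0.0254 with a fold under 1.3, at 66.7 ± 2.62 CPM in untreated and 50.9 ± 7.4 CPM in irradiated libraries. Xrcc4, of nonhomologous end joining, stood at 17.1 ± 2.64 CPM in untreated and 19.6 ± 1.12 CPM in irradiated libraries (log2 fold change 0.19, adjusted p = 0.377). The transcript levels say nothing of the phosphorylation by which this pathway signals.

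**Figure D2:**
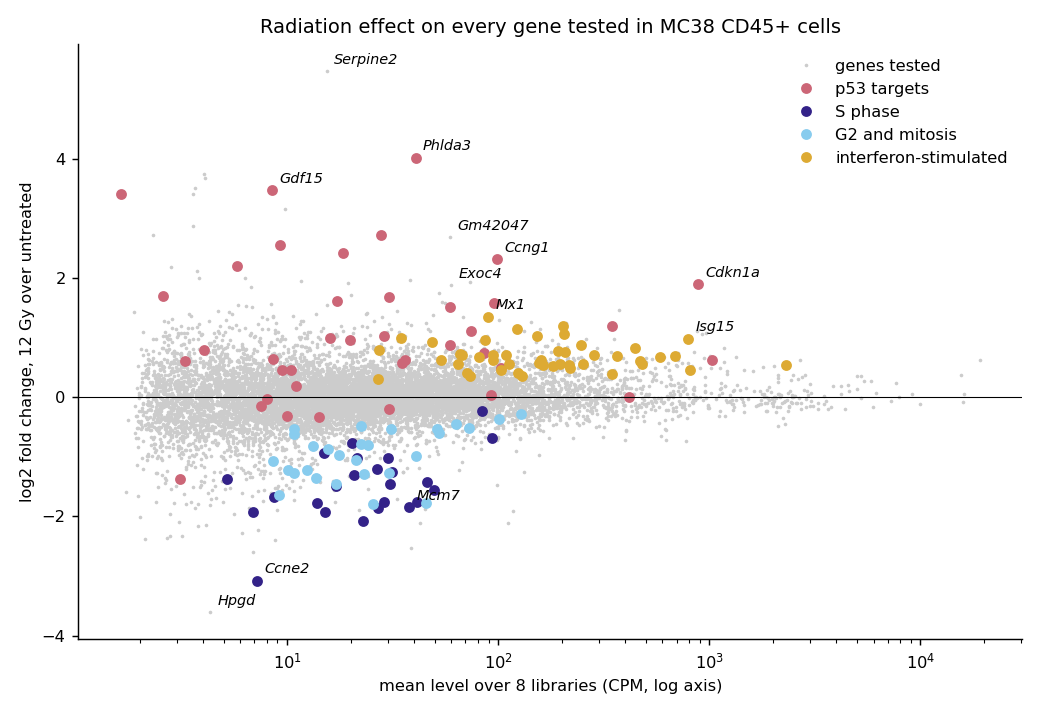
Radiation effect (log2 fold change, irradiated over untreated MC38) of each of the 10599 genes tested against its mean level over the 8 libraries (CPM, log axis), with 4 gene lists in color. Targets of p53 lie mostly above 0 (median 1.35 for arrest and feedback), all 24 S phase and 28 mitosis genes lie below 0, and all 46 interferon-stimulated genes lie above 0 by 0.31 to 1.35.

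Interferon-stimulated genes rose together as well. Of 46 tested, 33 were higher and 0 lower, against 8.47% and 7.81% of all genes. All 46 had a log2 fold change above 0, and the median was 0.65. The summed level of the list was 8234 to 10725 CPM in untreated and 13032 to 16266 CPM in irradiated libraries. Mx1, an antiviral GTPase gene, stood at 46.9, 49.1, 57.8 and 45.9 CPM in the untreated and 148, 157, 107 and 106 CPM in the irradiated libraries. The lowest irradiated library was well above the highest untreated one, and the mean rose from 49.9 ± 5.43 to 129 ± 27 CPM (log2 fold change 1.35 ± 0.14 (SE), edgeR adjusted p = 0.000116). Oas3, which makes the signal that activates RNase L, stood at 28.7, 40.1, 32.5 and 31.9 CPM in the untreated and 68.6, 64.2, 56.5 and 64.1 CPM in the irradiated libraries (log2 fold change 0.93, adjusted p = 0.000152), again without overlap. Stat2, a transcription factor of the type I interferon response, rose from 62 ± 4.88 to 99.4 ± 7.6 CPM, and Irf7, which amplifies it, rose from 375 ± 65.5 to 569.8 ± 108 CPM (log2 fold change 0.68 and 0.60, adjusted p = 0.00028 and 0.0195). Ifi204 (a DNA sensor of the IFI200 family), Trim30a and Slfn2 had log2 fold changes of 0.83 (adjusted p = 0.00024), 0.63 (adjusted p = 0.000266) and 0.57 (adjusted p = 0.00037). Each belongs to a family of similar genes, and their reads can be split between copies. Ddx58, which encodes the RNA sensor RIG-I, rose from 51.8 ± 3.99 to 77 ± 5.56 CPM (log2 fold change 0.56, adjusted p = 0.00106).

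Not all genes that interferon gamma raises strongly passed. Gbp2, a guanylate-binding protein gene, stood at 224, 406, 165 and 321 CPM in the untreated and 572, 529, 394 and 313 CPM in the irradiated libraries. It did not pass the test (log2 fold change 0.69, adjusted p = 0.216), and its libraries overlapped. Ifng, the gene of interferon gamma, stood at 12.7, 50.5, 6.7 and 23 CPM in the untreated and 182, 29.1, 58.2 and 55 CPM in the irradiated libraries, with RT 1 highest and a log2 fold change of 1.75 (adjusted p = 0.206). Of 5 testable interferon and receptor genes 0 were called in edgeR, with 1 at an unadjusted p under 0.05 and 0 called in DESeq2. Ifnb1, interferon beta, had 12 UMIs over all 8 libraries and was too low to test. Of 11 testable genes of nucleic acid sensing, 0 were called in edgeR or DESeq2 and 0 had an unadjusted p under 0.05. The largest log2 fold change on this list was 0.18. It does not hold the sensor genes Ddx58 and Ifi204, which were called higher as given above, so the count does not cover all sensors. Mb21d1 (cGAS) and Tmem173 (STING) stood at 24.8 ± 3.06 CPM in untreated and 25.9 ± 3.42 CPM in irradiated libraries and at 77.4 ± 5.76 CPM in untreated and 76.7 ± 6.22 CPM in irradiated libraries. Irf3, Tlr3 and Myd88 had log2 fold changes of -0.07 (adjusted p = 0.761), 0.15 (adjusted p = 0.566) and 0.03 (adjusted p = 0.905).

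Promoters of Oas3, Trim30a and Stat2 are shown because they hold GAAA followed, after any 2 bases, by a second GAAA, the core of the interferon-stimulated response element. The sequences are the 250 bases before each start from RefSeq (GRCm38.p6), chr5:120777660-120777909, minus strand for Oas3, chr7:104465194-104465443, minus strand for Trim30a and chr10:128270248-128270497, plus strand for Stat2, written 5′ to 3′ on the gene's strand, with the match on either strand in capitals. A second promoter entry of Trim30a, chr7:104446126-104446375, holds 0 matches in these 250 bases and is not shown.
Oas3: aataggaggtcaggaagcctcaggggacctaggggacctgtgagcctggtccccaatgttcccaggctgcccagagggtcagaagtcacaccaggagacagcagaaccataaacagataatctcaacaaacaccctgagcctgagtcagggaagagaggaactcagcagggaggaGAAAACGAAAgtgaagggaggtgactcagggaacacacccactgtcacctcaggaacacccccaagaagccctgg
Trim30a: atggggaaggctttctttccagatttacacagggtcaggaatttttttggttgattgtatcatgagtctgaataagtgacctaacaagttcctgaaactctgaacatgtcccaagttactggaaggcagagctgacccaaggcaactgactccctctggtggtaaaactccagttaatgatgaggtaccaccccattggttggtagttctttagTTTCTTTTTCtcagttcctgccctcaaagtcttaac
Stat2: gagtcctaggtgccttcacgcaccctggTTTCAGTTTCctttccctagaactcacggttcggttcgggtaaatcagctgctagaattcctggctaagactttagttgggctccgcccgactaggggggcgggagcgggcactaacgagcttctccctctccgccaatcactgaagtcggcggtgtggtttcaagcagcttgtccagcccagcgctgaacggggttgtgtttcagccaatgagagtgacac
The matches begin 75, 36 and 222 bases before the start, in the same order, and in Trim30a and Stat2 they read on the other strand. This motif was found in the promoters of 22 of 36 interferon-stimulated genes with a promoter in the table (61.1%), searched as above. It was found in 68 of 687 genes called higher (9.90%), in 4.29% of genes tested and in 3.99% of all 27025 genes.

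Chemokine and cytokine genes of myeloid cells were called higher in part. Of 17 chemokine genes tested, 3 were higher and 0 lower, against 8.47% and 7.81% of all genes (median log2 fold change 0.54). Ccl2, which draws monocytes through the receptor CCR2, stood at 867, 764, 1059.7 and 683 CPM in the untreated and 1501, 1379, 1514 and 1594 CPM in the irradiated libraries (log2 fold change 0.83 ± 0.12 (SE), edgeR adjusted p = 0.000644). Cxcl10, which draws activated T cells, stood at 920.1, 1136, 1112 and 1035 CPM in the untreated and 1691, 1477, 1292 and 1049.8 CPM in the irradiated libraries, and its groups overlapped (log2 fold change 0.39, adjusted p = 0.0609). It lost the call without NT 1, NT 4, RT 1 or RT 2. Cxcl9, its partner at the receptor CXCR3, stood at 929 ± 572 CPM in untreated and 987 ± 507 CPM in irradiated libraries (log2 fold change 0.08, adjusted p = 0.957). Ccl4, a chemokine of macrophages and T cells, had a log2 fold change of 0.21 (adjusted p = 0.486). Of 10 inflammatory cytokine genes, 6 were higher and 0 lower (median 0.47). Il1b, interleukin 1 beta, stood at 1785, 2246, 2376 and 2000.2 CPM in the untreated and 3369.8, 3432, 3106 and 3087 CPM in the irradiated libraries. It rose from 2102 ± 262 to 3249 ± 178 CPM (log2 fold change 0.63, adjusted p = 0.000918), but among strings found in 1 library it was at -0.10 (adjusted p = 0.865). Il1rn, the gene of the antagonist of interleukin 1, rose from 175 ± 48.6 to 345 ± 89.1 CPM, and Vegfa, which drives vessel growth, rose from 121 ± 12.8 to 221 ± 38.8 CPM (log2 fold change 0.97 and 0.85, adjusted p = 0.0362 and 0.000435). Spp1, osteopontin, stood at 849, 1197, 484 and 597 CPM in the untreated and 244, 331, 461 and 840.0 CPM in the irradiated libraries and was not called (log2 fold change -0.72, adjusted p = 0.361).

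Antigen presentation genes lay above their untreated level as lists over all CD45+ barcodes. Of 13 MHC class I genes, 3 were higher and 0 lower (against 8.47% and 7.81% of all genes), with all 13 above 0 (median log2 fold change 0.30). H2-T23, the gene of Qa-1, rose from 565 ± 66.3 to 824 ± 98.6 CPM, and Nlrc5, the transactivator of class I genes, rose from 31.9 ± 5.7 to 54.4 ± 11.2 CPM (log2 fold change 0.54 and 0.74, adjusted p = 0.00346 and 0.00597). H2-D1 and B2m, a classical heavy chain and the light chain, stood at 2764 ± 96.9 CPM in untreated and 3231 ± 274 CPM in irradiated libraries and at 3598 ± 128 CPM in untreated and 4122 ± 233 CPM in irradiated libraries, and neither was called. Of 10 class II genes, 2 were higher and 0 lower, with all 10 above 0 (median 0.32). Cd74, the invariant chain, stood at 14238, 14508, 11172 and 14515 CPM in the untreated and 15547, 20511, 17124 and 17238 CPM in the irradiated libraries. Its libraries did not overlap, but its fold was under 1.3 (log2 fold change 0.37, adjusted p = 0.0359). H2-Ab1, a class II chain, stood at 4874 ± 653 CPM in untreated and 5924 ± 669 CPM in irradiated libraries (log2 fold change 0.28, adjusted p = 0.104). H2-DMb2, which loads class II peptides, rose from 44.2 ± 13.7 to 63.9 ± 0.405 CPM (adjusted p = 0.081), a call that was lost without NT 1, NT 4 or any 1 of the 4 irradiated libraries. H2 genes are near-identical copies in part, and their counts can be split.

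Of 20 genes of dendritic cell maturation and costimulation, 3 were higher and 0 lower, against 8.47% and 7.81% of all genes (median log2 fold change 0.35). Cd80, a ligand of CD28, a costimulatory receptor of T cells, stood at 25, 30.2, 30.2 and 23 CPM in the untreated and 79.3, 39.1, 65.2 and 73.6 CPM in the irradiated libraries, and its groups did not overlap (log2 fold change 1.25, adjusted p = 0.00243). Cd86, the other CD28 ligand, rose from 207 ± 10.4 to 298 ± 31.9 CPM, and Il15ra, which presents interleukin 15, rose from 10.8 ± 0.706 to 16.9 ± 3.55 CPM (log2 fold change 0.52 and 0.59, adjusted p = 0.00168 and 0.0295). Cd274, the gene of PD-L1, stood at 69.5, 106, 61.6 and 92.1 CPM in the untreated and 339, 150.1, 141 and 103 CPM in the irradiated libraries, with RT 1 far above the rest and no call (log2 fold change 1.11, adjusted p = 0.129). Ccr7, the receptor that guides dendritic cells to lymph nodes, stood at 26.7, 6.5, 24 and 5.57 CPM in the untreated and 65.7, 1.48, 9.1 and 39.7 CPM in the irradiated libraries. Fscn1 and Relb, both markers of mature dendritic cells, had log2 fold changes of 0.34 (adjusted p = 0.635) and 0.07 (adjusted p = 0.719). Among the genes of conventional dendritic cells (cDCs), 1 of 13 was higher and 1 lower (median -0.18), and their summed level was 442 to 694 CPM in untreated and 578 to 763 CPM in irradiated libraries. The gene called higher was Ifi205, which is on the interferon-stimulated list too (log2 fold change 1.06, adjusted p = 0.0499). Flt3, Zbtb46, Xcr1, Itgae and Naaa had log2 fold changes of -0.23 (adjusted p = 0.728), -0.13 (adjusted p = 0.883), -1.33 (adjusted p = 0.127), -0.46 (adjusted p = 0.473) and 0.02 (adjusted p = 0.966). Cadm1, a cDC1 adhesion gene, fell from 23.4 ± 9.04 to 14 ± 2.65 CPM (adjusted p = 0.0865), a call that was lost without NT 1, NT 2, NT 4, RT 1, RT 3 or RT 4.

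Of 18 macrophage genes, 2 were higher and 1 lower, where 8.47% and 7.81% of all genes were (median log2 fold change -0.12). Fcgr1, a high-affinity antibody receptor gene, rose from 405 ± 29.7 to 585 ± 118 CPM (log2 fold change 0.53, adjusted p = 0.011). Apoe and C1qb, abundant macrophage transcripts for lipid transport and complement, stood at 10406 ± 736 CPM in untreated and 9583 ± 1721 CPM in irradiated libraries and at 3507 ± 341 CPM in untreated and 3071 ± 606 CPM in irradiated libraries, without a call. Fcrls (chr3:87250758-87263738, minus strand), an Fc receptor-like gene of resident macrophages, stood at 188, 112, 308 and 145 CPM in the untreated and 20.7, 33.2, 58.2 and 74 CPM in the irradiated libraries. It fell from 188 ± 85.5 to 46.5 ± 24 CPM (log2 fold change -1.91 ± 0.47 (SE), edgeR adjusted p = 0.0401), and its irradiated libraries were all below the untreated ones. Of 13 lipid-handling macrophage genes, 3 were higher, including Plin2, which coats lipid droplets, and Abcg1, a cholesterol exporter (log2 fold change 0.55 and 0.49, adjusted p = 0.00322 and 0.0178). Of 12 monocyte genes, 4 were higher and 0 lower (median 0.61). Ms4a4c rose from 524 ± 75.2 to 846 ± 159 CPM (log2 fold change 0.69, adjusted p = 0.00622), and it is on the interferon-stimulated list as well. Plac8 and Vcan had log2 fold changes of 1.10 (adjusted p = 0.045) and 1.23 (adjusted p = 0.0361). Plac8 lost its call without NT 4, RT 2 or RT 3 and Vcan without RT 3. Cd14, the coreceptor of lipopolysaccharide sensing, stood at 788 ± 62.9 CPM in untreated and 726 ± 80.0 CPM in irradiated libraries (log2 fold change -0.12, adjusted p = 0.432). Arg1, arginase 1 of myeloid cells, rose from 602 ± 139 to 1253 ± 359.6 CPM (log2 fold change 1.06, adjusted p = 0.0246).

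T cell genes lay above their untreated level as a list, with 4 of 18 called higher, against 8.47% of all genes, and 0 lower. All 18 were above 0 (median log2 fold change 0.81). Within T cell-like barcodes, defined below, 0 of 18 were called (median 0.09). Only 0.478% of all genes tested were called higher there, so 0 calls among 18 genes carry little weight. Ms4a4b, a membrane gene of T and NK cells, stood at 116, 112, 65 and 98.9 CPM in the untreated and 339, 149.8, 200.4 and 186 CPM in the irradiated libraries (log2 fold change 1.14, adjusted p = 0.0431), and Themis, of T cell selection, at 3.73, 5.93, 3.92 and 5.11 CPM in the untreated and 13.6, 4.8, 15.4 and 8.25 CPM in the irradiated libraries (log2 fold change 1.15, adjusted p = 0.0263). The groups overlapped for Themis. The first gene lost its call without NT 4 and the second without RT 3. The summed T cell level was 342 to 623 CPM in untreated and 391 to 1561 CPM in irradiated libraries, and these ranges overlapped. Of 8 naive and memory T cell genes, 4 were higher (median 0.75), including Satb1, a chromatin organizer, and Klf2, which controls exit from tissues (log2 fold change 1.25 and 0.52, adjusted p = 0.0184 and 0.0253). Of 12 NK cell genes, 2 were higher, among them Eomes, a transcription factor of NK and memory T cells, from 4.21 ± 2.2 to 12.6 ± 3.1 CPM (log2 fold change 1.56, adjusted p = 0.0256). Of 11 cytotoxic effector genes 0 were called in edgeR, with 0 at an unadjusted p under 0.05 and 2 called in DESeq2. Of 10 inhibitory and costimulatory receptor genes 0 were called in edgeR, with 2 at an unadjusted p under 0.05 and 1 called in DESeq2. In the regulatory T cell list 1 of 9, in the neutrophil list 1 of 11 and in the B cell list 2 of 4 tested genes were higher. The other 2 tested B cell genes were below 0, and the rest of the 12 listed were too low to test. The summed B cell level did not rise, at 58.1 to 115 CPM in untreated and 27.4 to 90.1 CPM in irradiated libraries. Among all genes tested, 8.47% were called higher.

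Lists of tissue handling and metabolism were counted in the same way, against 8.47% of all genes called higher and 7.81% lower. Of 16 immediate early and heat shock genes, 5 were higher and 0 lower (median log2 fold change 0.38), with Dusp1, a phosphatase gene, at 627 ± 84 CPM in untreated and 1058 ± 77.4 CPM in irradiated libraries (log2 fold change 0.75, adjusted p = 0.000319). Jund and Zfp36, an AP-1 subunit and a factor of mRNA decay, had log2 fold changes of 0.51 (adjusted p = 0.00209) and 0.52 (adjusted p = 0.00233). The summed level of that list was 8328 to 9670 CPM in untreated and 10438 to 11325 CPM in irradiated libraries, and its part in the other results was not tested. Of 11 mitochondrial transcripts 0 were called in edgeR or DESeq2, with 1 at an unadjusted p under 0.05 (median -0.08). In glycolysis and hypoxia 2 of 12, in the Nrf2 stress list 1 of 10 and among genes of cells outside the gate 1 of 6 were higher, and 0 were lower in each.

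To ask whether the mix of cells differed, the 2632 barcodes were clustered without the p53, interferon, cell cycle, immediate early and mitochondrial lists, and clusters were named by markers. The macrophage-like share was 28.1% ± 5.62 in untreated and 14% ± 2.75 in irradiated libraries (SD, n = 4 each). Macrophage-like shares were 24.4%, 24.3%, 27.5% and 36.3% against 10.9%, 14.1%, 13.4% and 17.6%. Monocyte-like shares went the other way, at 25.2%, 29.8%, 29.6% and 29.9% against 33.3%, 47.4%, 41.7% and 38.6%. The monocyte-like clusters 5, 10 and 13, of 401, 272 and 234 barcodes, had 4, 3 and 5 of 8 monocyte markers raised. The name is weakest for cluster 10, where neutrophil markers came second with 25% raised. In cluster 5, the largest of the 3, macrophage markers came second with 30% raised, against 50% of monocyte markers. The line between the macrophage-like and monocyte-like classes is therefore not sharp. In both classes the libraries of the groups did not overlap in this clustering, and the monocyte-like result depended on the clustering, as given below. The differences were -14.1 and 11.7 percentage points, and each had p = 0.0286 in an exact two-sided permutation test, the smallest that 4 against 4 libraries allow. After adjustment over 8 shares each was at 0.114, so 0 shares passed the threshold of 0.1, and 2 had an unadjusted p under 0.05. With only 2 shares at the smallest possible p, adjustment over 8 could not go below 0.114. That 0 passed is therefore no evidence that the shares were alike. The T cell-like share was 10.6% ± 2.85 and 15% ± 5.68 (exact permutation p = 0.2), NK cell-like 6.37% ± 2.9 and 8.96% ± 2.0 (exact p = 0.257), and cDC-like 4.48% ± 1.77 and 3.41% ± 1.56 (exact p = 0.457). In UMIs rather than barcodes, macrophage-like cells gave 54.1% to 61.4% of untreated and 26.7% to 39.0% of irradiated libraries. The summed macrophage list was 23756 to 28020 CPM in untreated and 19530 to 26615 CPM in irradiated libraries, which overlapped. The part of the class shares in the results over all barcodes was not tested.

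A pair of clusters with 199 and 259 barcodes stayed unnamed, with medians of 664 and 849 UMIs. Leading genes of the smaller one were Cald1, Ankrd1 and Tpm1, of contractile and adherent cells, and of the larger one S100a8, Hba-a1 and Mcpt2. They held 20.8% ± 6.09 of barcodes in untreated and 17.0% ± 6.33 in irradiated libraries, and 0.910% to 2.83% of UMIs. Without them, 848 genes were higher and 877 lower. Cluster 1, of macrophage-like barcodes led by Hist1h2ae, Fcrls, Stmn1 and Birc5, held 57 untreated and 3 irradiated barcodes. Its genes of S phase and mitosis made 7208 CPM, against 1279 and 2483 CPM in the other macrophage-like clusters. The clustering left out those lists but not other genes of dividing cells such as Stmn1, so this describes the cluster and is no test.

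**Figure D3:**
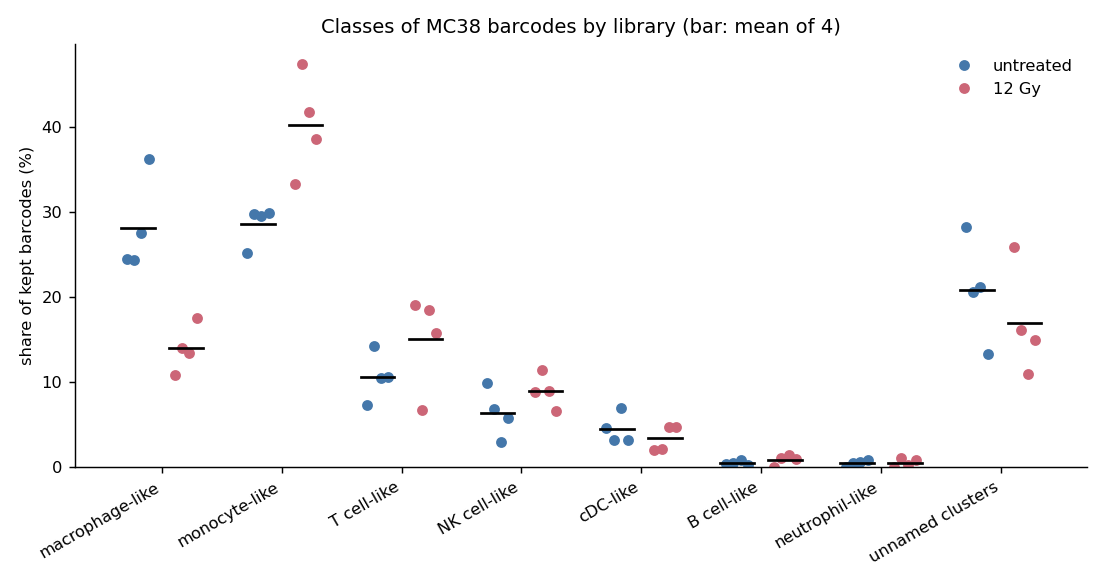
Share of kept barcodes (percent, from 0) in each class for the 4 untreated and 4 irradiated MC38 libraries, 1 point per library, with bars at the mean. Macrophage-like shares lie between 24.3% and 36.3% untreated and between 10.9% and 17.6% irradiated, monocyte-like shares lie in the opposite order without overlap, and the other classes overlap.

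Within a class, where the mix of classes is held, UMIs were summed per library and tested again. In macrophage-like barcodes 669 genes (6.51%) were higher and 689 (6.71%) lower of 10269, and in monocyte-like barcodes 133 (1.37%) higher and 62 (0.637%) lower of 9739. In T cell-like barcodes 25 (0.478%) were higher and 5 (0.0956%) lower of 5231, and in NK cell-like barcodes 2 (0.0559%) higher and 0 lower of 3580, where 207 genes had an unadjusted p under 0.05. The classes differ in depth, so the counts do not rank their responses. DESeq2 was not run within classes. In T cell-like barcodes 0 of 18 T cell genes were called, with 3 at an unadjusted p under 0.05 (median log2 fold change 0.09). In monocyte-like barcodes 0 of 12 monocyte genes were called, with 5 at an unadjusted p under 0.05 (median 0.19). In macrophage-like barcodes 4 of 18 macrophage genes were higher and 0 lower (median 0.30). Their summed level there was 35508 to 36217 CPM untreated and 40067 to 41390 CPM irradiated. Called genes numbered 195 in monocyte-like barcodes and 128, 362 and 94 without NT 1, NT 2 or NT 4. They numbered 30 in T cell-like barcodes and 18, 17, 10 and 14 without NT 2, NT 4, RT 3 or RT 4. For NK cell-like barcodes they numbered 8, 1, 1, 5, 1 and 5 without NT 1, NT 3, RT 1, RT 2, RT 3 or RT 4.

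Targets of p53 were called higher in macrophage-like, monocyte-like and T cell-like barcodes. Of the arrest and feedback list, 10 of 16 tested genes were higher in macrophage-like, 9 of 14 in monocyte-like, 6 of 10 in T cell-like and 0 of 6 in NK cell-like barcodes, with 4 of those 6 at an unadjusted p under 0.05 and median log2 fold changes of 1.52, 1.24, 1.72 and 1.20. Cdkn1a went from 277 to 1363 CPM (log2 fold change 2.30 ± 0.15, adjusted p = 1.88e-06) in macrophage-like barcodes. In monocyte-like barcodes it went from 616 to 1572 CPM (log2 fold change 1.35 ± 0.11, adjusted p = 5.59e-07). In T cell-like barcodes it went from 92.6 to 638 CPM (log2 fold change 2.71 ± 0.41, adjusted p = 0.0116), and in NK cell-like barcodes from 136 to 442 CPM (log2 fold change 1.55 ± 0.35, adjusted p = 0.103), which did not pass. The 9 genes called higher in each of macrophage-like, monocyte-like and T cell-like barcodes were Cdkn1a, Ccng1, Phlda3, Trp53inp1, Zmat3, Bax, Exoc4, Gm42047 and Mdm4, the gene of an Mdm2 relative that binds p53. Of these, Gm42047 was called higher in NK cell-like barcodes as well, with log2 fold changes of 2.45, 2.97, 3.57 and 3.74 in the order above. Mdm4 and the genes of this comparison of classes were named after their values were seen.

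Serpine2 UMIs came mostly from NK cell-like and T cell-like barcodes. In NK cell-like barcodes it had 6, 0, 0 and 2 UMIs in the untreated and 35, 53, 51 and 92 UMIs in the irradiated libraries, which is 9.4 to 603 CPM (log2 fold change 5.15 ± 0.48, adjusted p = 4.7e-08). In T cell-like barcodes it had 0, 0, 1 and 4 against 32, 6, 37 and 66 UMIs, which is 5.68 to 149 CPM (log2 fold change 4.41 ± 0.52, adjusted p = 6.87e-05). Macrophage-like barcodes had 0, 0, 1 and 0 against 0, 9, 6 and 8 UMIs, and monocyte-like barcodes 0 in all untreated libraries against 3, 2, 12 and 10 UMIs. It was among the 2 genes called in NK cell-like barcodes, beside Gm42047.

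**Figure D4:**
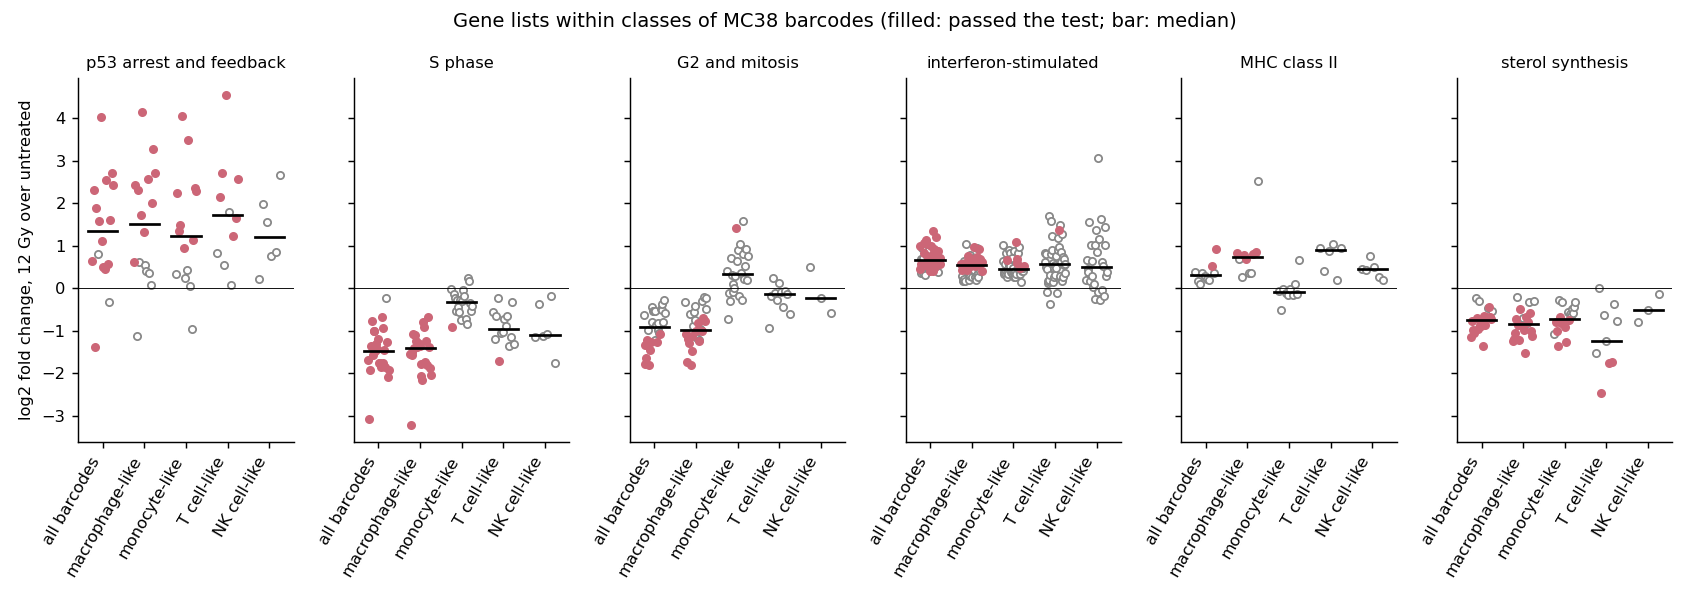
Log2 fold change (irradiated over untreated) of each tested gene of 6 lists over all MC38 barcodes and within 4 classes, with filled points for genes that passed the test and bars at the median. The medians of the p53 arrest and feedback list lie above 1 in all 4 classes, the S phase median is -1.40 in macrophage-like and -0.33 in monocyte-like barcodes, and the MHC class II median is 0.74 and -0.09 in the same classes.

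In macrophage-like barcodes 24 of 24 S phase genes were lower (median log2 fold change -1.40). The summed S phase level there was 1114 to 1624 CPM untreated and 422 to 488 CPM irradiated. Monocyte-like barcodes had a low level in both groups, 315 to 393 and 293 to 370 CPM, with 1 of 20 genes lower (median -0.33). In T cell-like barcodes 1 of 14 was lower and all 14 were below 0 (median -0.96), and the summed level was 998 to 1781 CPM untreated and 574 to 966 CPM irradiated, without overlap. In NK cell-like barcodes 0 of 6 were called in edgeR, with 3 at an unadjusted p under 0.05 and all 6 below 0 (median -1.10), and the summed levels of 569 to 2744 and 536 to 933 CPM overlapped. Mcm7 went from 82.7 to 15.9 CPM (log2 fold change -2.16 ± 0.25, adjusted p = 0.000154) in macrophage-like and from 14 to 11.6 CPM (log2 fold change -0.30 ± 0.22, adjusted p = 0.638) in monocyte-like barcodes. Of the mitosis list, 14 of 28 were lower in macrophage-like barcodes (median -0.97) and 1 of 24 was higher in monocyte-like ones (median 0.34). Without cluster 1, a choice made after its makeup was seen, 517 genes were higher and 428 lower of 9805 in macrophage-like barcodes. There 18 of 23 S phase genes were still lower (median -1.08), while the mitosis list had 4 genes higher and 1 lower of 28 (median 0.29).

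The radiation effects in macrophage-like and monocyte-like barcodes were compared directly, with each library as a block, in a test added after the class results were seen. Of 10634 genes, 54 had a higher and 78 a lower effect in macrophage-like barcodes (1.24% in all). The count of 132 was 78, 77, 87 and 68 without NT 1, NT 3, NT 4 or RT 3. Among S phase genes, 7 of 24 had a lower effect and all 24 differences were below 0 (median -0.96). The difference was -1.83 ± 0.34 (adjusted p = 0.0106) for Mcm7, -1.58 ± 0.34 (adjusted p = 0.0228) for Lig1 and -1.81 ± 0.36 (adjusted p = 0.014) for Tk1 on the log2 scale in edgeR. Among mitosis genes, 10 of 28 had a lower effect (median -1.14). Cluster 1 was part of the macrophage-like class here, and the direct comparison was not repeated without it. In macrophage-like barcodes alone, leaving it out moved the median of the mitosis list from -0.97 to 0.29 and that of the S phase list from -1.40 to -1.08. MHC class II genes went the other way, with 6 of 10 higher and all 10 above 0 (median 0.89). H2-Ab1 went from 4079 to 6572 CPM (log2 fold change 0.69 ± 0.15, adjusted p = 0.0109) in macrophage-like barcodes and from 6688 to 6035 CPM (log2 fold change -0.15 ± 0.13, adjusted p = 0.692) in monocyte-like ones, a difference of 0.85 ± 0.08 (adjusted p = 7.2e-07) in edgeR. Cd74 went from 12071 to 21400.0 CPM (log2 fold change 0.83 ± 0.16, adjusted p = 0.0075) and from 17971 to 17294 CPM (log2 fold change -0.06 ± 0.11, adjusted p = 0.887), a difference of 0.92 ± 0.08 (adjusted p = 6.03e-07) in edgeR. Ciita, the transactivator of class II genes, and Itgax, the gene of CD11c, differed by 1.20 ± 0.16 (adjusted p = 4.79e-05) and 1.06 ± 0.15 (adjusted p = 0.00027) in edgeR. The summed class II level of macrophage-like barcodes was 21041 to 35608 CPM untreated and 42903 to 51174 CPM irradiated, while their summed cDC marker level was 349 to 517 and 439 to 544 CPM. In monocyte-like barcodes the summed cDC marker level was 488 to 889 and 649 to 771 CPM. In the direct comparison 0 of 9 cDC genes were called in edgeR, with 1 at an unadjusted p under 0.05, and all 9 differences were above 0 (median 0.77). The part of cDC transcripts in the class II difference was not tested. Cdkn1a rose more in macrophage-like barcodes, by 0.95 ± 0.19 (adjusted p = 0.0595) on the log2 scale in edgeR, from a lower start.

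Interferon-stimulated genes were above 0 in all 46 cases in macrophage-like and in monocyte-like barcodes, with 21 and 6 called higher (medians 0.55 and 0.44). In T cell-like barcodes 1 of 41 and in NK cell-like barcodes 0 of 28 were called in edgeR, 8 of the latter having an unadjusted p under 0.05 (medians 0.58 and 0.49). Mx1 went from 41.3 to 90.5 CPM (log2 fold change 0.97 ± 0.23, adjusted p = 0.0232) in macrophage-like and from 73 to 157 CPM (log2 fold change 1.10 ± 0.21, adjusted p = 0.0324) in monocyte-like barcodes. Of 46 interferon-stimulated genes, 0 were called as different between these classes in edgeR, with 2 at an unadjusted p under 0.05 and a median difference of -0.04. The mix of clusters inside a class is not held. Monocyte-like cluster 13, with Chil3, Plac8, Cxcl10, Ifi205, Cxcl9, Gbp2 and Ifit3 among its leading genes, held 81 untreated and 153 irradiated barcodes. The monocyte-like clusters 5 and 10 held 197 and 105 untreated and 204 and 167 irradiated barcodes. The part of this mix in the rise was not tested. In all, 124 genes were called in the same direction in macrophage-like and monocyte-like barcodes, of 9542 tested in both, which is 9.13% of the 1358 and 63.6% of the 195 called.

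To see where MC38 differed from the other tumor, the radiation effect in MC38 was tested against that in Panc02-SIY over all 16 libraries. Panc02-SIY libraries kept 1113 to 4452 barcodes and 5275195 to 43708746 UMIs, at least 99.0% of their UMIs. MC38 libraries kept 147 to 609 barcodes and 1385711 to 8500889 UMIs, 42.8% to 86.4% of theirs. Depth and the sharing of barcode strings thus differ with the tumor, and their part in this comparison cannot be told apart from it. Of 12447 genes, 19 had a higher and 24 a lower effect in MC38 (0.345% in all), and 1472 had an unadjusted p under 0.05. The count of 43 was 26, 7, 4, 3, 3 and 19 without NT 1, NT 2, NT 3, NT 4, RT 3 or RT 4 of MC38. It was 19, 154, 11, 103, 13 and 67 without NT 2, NT 4, RT 1, RT 2, RT 3 or RT 4 of Panc02-SIY. Of the 1726 genes called in MC38 and tested here, 26 differed from Panc02-SIY. The genes Hpgd and Cysltr1, named after their values were seen, kept the difference in all 16 fits that left out 1 library. Hpgd, whose enzyme degrades prostaglandins, had log2 fold changes of -3.60 ± 0.51 in MC38 and 0.35 ± 0.29 in Panc02-SIY (difference -3.95 ± 0.60, edgeR adjusted p = 0.0269). Its mean went from 8.89 to 0.596 CPM in MC38 and from 11.2 to 14.7 CPM in Panc02-SIY. An irradiated MC38 level this near 0 leaves the size of the fall and of the difference imprecise. Cysltr1, a receptor of leukotriene D4, had log2 fold changes of -0.28 ± 0.12 in MC38 and 0.98 ± 0.13 in Panc02-SIY (difference -1.26 ± 0.18, edgeR adjusted p = 0.0128).

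The effect on some p53 targets and on Exoc4 differed between the tumors, in both directions. The effect on Cdkn1a was 1.92 ± 0.15 in MC38 and 2.88 ± 0.16 in Panc02-SIY (difference -0.96 ± 0.21, edgeR adjusted p = 0.0951), where its mean went from 409 to 1552 CPM in MC38 and from 54.2 to 397 CPM in Panc02-SIY. Mdm2, Zmat3 and Exoc4 rose more in MC38, by 0.94, 1.12 and 0.56 on the log2 scale (adjusted p = 0.0776, 0.0951 and 0.0776). These 4 differences kept their call in 5, 5, 2 and 3 of the 16 fits that left out 1 library. Ccng1 and Bax did not differ past the threshold (difference 0.60 ± 0.15, edgeR adjusted p = 0.124 for Ccng1 and difference 0.30 ± 0.18, edgeR adjusted p = 0.53 for Bax). Ermard changed by 1.76 ± 0.24 in MC38 and 0.11 ± 0.22 in Panc02-SIY (difference 1.65 ± 0.33, edgeR adjusted p = 0.0776), a call kept in 6 of 16 fits. Mcm6 and Ccne2 fell further in MC38, with differences of -1.07 and -2.20 (adjusted p = 0.0848 and 0.0776), kept in 9 and 11 of 16 fits. Arg1 rose in both tumors from very different levels, 656 CPM in untreated MC38 and 2.85 CPM in untreated Panc02-SIY (difference -2.17 ± 0.43, edgeR adjusted p = 0.0776), a call kept in 8 of 16 fits. Cd14 changed by -0.09 ± 0.16 in MC38 and 1.08 ± 0.16 in Panc02-SIY (difference -1.17 ± 0.23, edgeR adjusted p = 0.0776), kept in 10 of 16 fits. Mx1 had a difference of -0.09 ± 0.33 (adjusted p = 0.99).

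**Figure D5:**
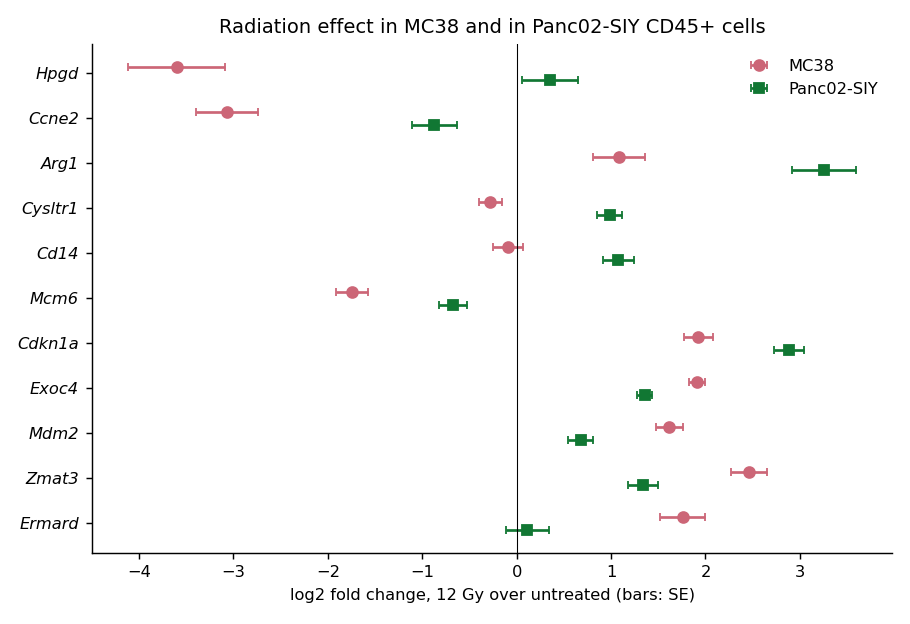
Radiation effect (log2 fold change, irradiated over untreated, with SE bars) of 11 genes in CD45+ cells of MC38 (circles) and of Panc02-SIY (squares), from 1 fit of 16 libraries. Hpgd lies at -3.60 in MC38 and 0.35 in Panc02-SIY, Cdkn1a is farther right in Panc02-SIY, and Mdm2, Zmat3, Exoc4 and Ermard are farther right in MC38.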

How the data were processed

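CD45+ cells of 8 MC38 libraries (4 untreated, 4 irradiated with 12 Gy) were analysed, with 8 Panc02-SIY libraries for 1 comparison. The deposited values are raw UMI counts per barcode and gene, which the authors made with Cell Ranger 3.1.0 (bcl2fastq 2.20.0, build mm10, 10x 3′ libraries, per the labels and the submitters' processing notes). Annotation release and cell calling settings are not given in the sources used here. Barcode names and feature names in the other deposited files were read as names, and the aggregated matrix of all libraries was not used.

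All called barcodes were kept, and a string found in several libraries of a tumor was kept only where its UMIs were highest. Counts were summed per library and tested with edgeR 4.0.16 under R 4.3.3 (robust quasi-likelihood, TMM scaling, 1 coefficient per group, low genes dropped by filterByExpr at a count of 10, or 5 within classes) over the 8 MC38 libraries. A gene was called when its p, adjusted by Benjamini-Hochberg over all genes tested, was under 0.1 and its change exceeded 1.3-fold. CPM of single genes are counts divided by library size times TMM factor, while summed list levels and cluster values are divided by total UMIs alone. In the comparison of tumors the factors come from the fit of all 16 libraries. MC38 levels given there therefore differ from those of the 8-library fit. Clustering used scanpy 1.11.5 with the Leiden method of igraph 0.11.9 (2000 variable genes without 194 response genes, 30 components, 15 neighbors, resolution 1), and a cluster was named from at least 3 raised markers. Classes with at least 10 barcodes in each of the 8 libraries were tested. Shares were compared by exact permutation over libraries. Doublets were kept (Scrublet's own threshold marked 23 barcodes, 0.874%), and the 5% of highest scores (136 barcodes) were removed in an alternative. The scripts were tested on simulated counts. Each library was counted as 1 sample. Replicates of a group differed beyond the counting noise of UMIs (chi-square per degree of freedom 4.79 to 8.19). Separate draws of cells from 1 tumor would also differ in this way, so the value cannot tell whether libraries come from separate animals.

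Gene positions are from GENCODE M21 on GRCm38 (mm10), and promoters from RefSeq on GRCm38.p6. Named genes are the 10 largest rises and falls among called genes without overlap and of at least 20 CPM, the 5 lowest adjusted p in each direction, up to 6 called and 2 uncalled members per list, genes the study names in its single-cell text, and class markers, unless said to be chosen later. Values are printed for part of them, and some items are not reported here. The members and lists were chosen with earlier results of these data known. Alternatives were RLE scaling, library size alone, DESeq2 1.42.0, no filter, other thresholds, all 16 libraries in the fit, a replicate block, other choices of barcodes, thinning to 1000 UMIs per barcode or to 1385711 per library, and leaving out each library. Precision is limited by 4 libraries per group.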

Additional observations from a re-analysis of the deposited data

Results flagged for a closer look

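In groups of 4, a library is given here when its gap to the nearest other library, as a share of the group's range, exceeded Dixon's critical value. Chance gives this in about 5% of groups, and it was met in 12 of the 260 groups checked. NT 3 was high for Bax at 243 CPM and for Pmaip1 at 82.0 CPM, and low for Cd74 at 11172 CPM and for H2-Ab1 at 3899 CPM. NT 1 was high for H2afx at 62.7 CPM and for Stmn1 at 246 CPM, and its monocyte-like share was low at 25.2%. RT 1, the shallowest library, was high for Serpine2 at 50.7 CPM and for Slbp at 87.9 CPM. Its level of Ccne2, 1.43 CPM, met the rule against 3 nearly equal libraries, a gap too small for such low counts to resolve. RT 4 was high for Ung at 2.71 CPM and for Fscn1 at 33.8 CPM.

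The radiation effect differed between MC38 and Panc02-SIY for 43 genes in the test of the difference itself. Only the 11 among the 125 genes followed are listed, on the log2 scale and as MC38 minus Panc02-SIY. They were Hpgd at -3.95, Ccne2 at -2.20, Arg1 at -2.17, Cysltr1 at -1.26, Cd14 at -1.17, Mcm6 at -1.07, Cdkn1a at -0.96, Exoc4 at 0.56, Mdm2 at 0.94, Zmat3 at 1.12 and Ermard at 1.65. Hpgd and Cysltr1 kept the call in 16 of 16 fits that left out 1 library, and the other 9 listed genes in 2 to 11.

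The radiation effect differed between macrophage-like and monocyte-like barcodes for 132 genes in the test of the difference itself. Only the 13 among the 125 genes followed are listed, which leaves out Ciita and Itgax, given above. As macrophage-like minus monocyte-like on the log2 scale, the listed effects were negative for genes of proliferation: Mcm7 at -1.83, Tk1 at -1.81, Cdca3 at -1.64, Birc5 at -1.62, Lig1 at -1.58, Mcm5 at -1.46, Stmn1 at -1.43, Fen1 at -0.99 and Slbp at -0.80. They were positive for Cdkn1a at 0.95, for the class II genes Cd74 at 0.92 and H2-Ab1 at 0.85, and for Jund at 0.45. The macrophage-like class includes cluster 1, with its high level of cell cycle genes, and this test was not repeated without it.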

How the results depend on the processing

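Of 898 genes called higher and 828 lower, RLE scaling gave 874 and 847, DESeq2 844 and 732, and no filter 862 and 878. Library size alone gave 586 and 1185, with the median log2 fold change of all genes at -0.07 instead of 0.01. A log2 fold change above 0.58 gave 457 and 481, all barcode entries 490 and 543, strings of 1 library only 27 and 9, barcodes thinned to 1000 UMIs 187 and 139 of 3883, and libraries thinned to 1 depth 625 and 520 of 8602. Fitting all 16 libraries gave 901 and 554. Leaving out 1 library gave 717 to 930 higher and 642 to 833 lower. Il1b turned from 0.63 to -0.10 (adjusted p = 0.865) among strings of 1 library only. Fewer genes and UMIs enter the settings that drop or thin barcodes, and the cause of the changes in any of these settings was not tested.

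The deviations of same-numbered MC38 libraries had correlations of 0.15, -0.05, 0.08 and 0.02, without a reference value to set them against. They cannot show whether such libraries share an animal, a day or a run, and Panc02-SIY was not checked. With the replicate number as a block, 967 genes were higher and 852 lower, and 6 genes were called in NK cell-like barcodes instead of 2. In the comparison of tumors the block gave 607 genes instead of 43.

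Within classes, leaving out 1 library gave 976 to 1396 genes called in macrophage-like, 94 to 362 in monocyte-like, 10 to 40 in T cell-like and 1 to 8 in NK cell-like barcodes, or 1124 to 1575 in all against 1585. Macrophage-like minus monocyte-like gave 68 to 157 against 132. MC38 minus Panc02-SIY gave 3 to 154 against 43, and 22 with libraries thinned. The class shares gave 0 in every setting, but without 1 library no exact permutation p fell under 0.0571, so those settings say nothing of stability. At resolution 2 the mean monocyte-like share was 18.6% untreated and 24.9% irradiated (exact permutation p = 0.0857). With every called gene also left out of the clustering it was 35.3% and 43.4% (exact permutation p = 0.114). The macrophage-like share kept an exact permutation p of 0.0286 in both settings. Unnamed barcodes were 35.7% and 32.9% at resolution 2. With barcodes filtered on gene number and mitochondrial share, the macrophage-like and monocyte-like shares each had an adjusted exact permutation p of 0.1, on the threshold itself. The mean unnamed share was then 47.9% untreated and 46.9% irradiated. By list, strings of 1 library only left 4 of 8 tested p53 arrest, 3 of 7 p53 death, 1 of 9 S phase, 0 of 13 mitosis and 5 of 46 interferon-stimulated genes called. Barcodes thinned to 1000 UMIs left 7 of 9, 3 of 5, 1 of 3, 3 of 8 and 14 of 43. A log2 fold change above 0.58 left 21 of 46 interferon-stimulated genes. Mitosis genes called were 2 with all 16 libraries in the fit and 21 with the replicate block, against 10. Of 125 genes followed, 87 were called, and 79 of these in all 8 fits that left out 1 library. The genes followed were chosen in part by their change or adjusted p in these same data. This count therefore does not stand for all called genes. Strings of 1 library only ended the call of 42 of 85 genes tested, and thinning barcodes to 1000 UMIs that of 22 of 77. Among named genes, the call was lost with all 16 libraries in the fit for Aurkb, Birc5, Brca1, Cadm1, Ccl2, Cdk1, Cxcl10, Fcgr1, Klf2 and Plin2, with all barcode entries kept for Abcg1, Birc5, Cadm1, Cd86, Cxcl10, Ddx58, H2-DMb2, H2-T23, Jund, Klf2, Plin2, Trp53 and Zfp36, with no filter on low counts for Cadm1, Cxcl10 and H2-DMb2, with the doublet scores applied for Cadm1 and H2-DMb2, with library size alone for Cxcl10 and H2-DMb2, and with the replicate block for Cxcl10.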

Other observations

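Genes of sterol synthesis, the pathway that makes cholesterol from acetyl-CoA, were lower in irradiated MC38 tumors. This list of 20 genes was drawn up after Fdps and Idi1 had been seen among the genes called in 3 classes, so its counts are a description. All 20 had a log2 fold change below 0 (median -0.75) and 16 were called lower, against 7.81% of all genes tested. Fdps, which makes farnesyl diphosphate, stood at 228, 190.3, 167 and 247 CPM in the untreated and 81.4, 107, 101 and 129.6 CPM in the irradiated libraries (log2 fold change -0.97, edgeR adjusted p = 0.00202). Idi1, an isomerase early in the pathway, stood at 89.6, 82.7, 80.8 and 95.1 CPM in the untreated and 52.9, 43.5, 42.3 and 55.7 CPM in the irradiated libraries (log2 fold change -0.84, edgeR adjusted p = 0.000212). In both genes the groups did not overlap. Lss, which closes the sterol rings, and Dhcr7, which acts at the last step to cholesterol, had log2 fold changes of -1.35 (adjusted p = 0.00106) and -1.05 (adjusted p = 0.00199) in edgeR. Hmgcs1, which acts early in the pathway, had a log2 fold change of -0.86 (adjusted p = 0.00597) in edgeR.

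The fall was found within classes. In macrophage-like barcodes 15 of 20 were lower (median -0.84), in monocyte-like barcodes 9 of 20 (median -0.72) and in T cell-like barcodes 3 of 9 (median -1.24), while 3 genes could be tested in NK cell-like barcodes and 0 were called in edgeR (median -0.51). Fdps fell in T cell-like barcodes from 117 to 15.5 CPM (log2 fold change -2.48 ± 0.36, adjusted p = 0.000883) in edgeR. In the fit of all 16 libraries, 3 of 20 were lower in Panc02-SIY (median -0.28), where 1827 of 12447 genes were called in either direction. The count of 16 in MC38 is from the fit of the 8 MC38 libraries, so these 2 counts are not on a like basis. In the test of the difference between the tumors, 0 of 20 were called in edgeR, with 9 at an unadjusted p under 0.05 (median difference -0.41).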
